A study of Homo sapiens with 4 samples.

Results

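The RNA levels of HSP90, its co-chaperones and the heat shock factors were compared between untreated K562 cells (0 h) and K562 cells given hemin for 24 h. The genes were chosen by symbol: HSP90AA1, HSP90AB1, AHSA1, FKBP4, STIP1, CHORDC1, CACYBP, PTGES3, HSF1 and HSF2. Of these 10 genes, 8 had a named probe set, each of them 1, among 20893 transcript probe sets for 17687 named genes. AHSA1 and HSF2 had none, so their RNA levels are not analysed here. K562 is an established line of chronic myeloid leukemia cells that takes on erythroid features when given hemin, the oxidized form of heme. The untreated group (0 h) and the group kept for 24 h in 50 µM hemin each had 2 Human Clariom S arrays, labelled as biological replicates. The methods add DMSO as a vehicle to hemin cultures, and no source used here says whether the cells at 0 h received it. All 4 arrays are of 1 cell line, and no cells kept for 24 h without hemin were measured, so hemin and time in culture cannot be told apart. Whether the replicates came from separate cultures is not described, and a p-value therefore reflects the spread among these arrays alone, which may be technical.

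HSP90 is a cytosolic chaperone that works as a dimer. It binds ATP, closes around a client protein such as a kinase or a steroid receptor, and opens again after hydrolysis. Co-chaperones pace this cycle: some deliver clients from HSP70, some speed or hold the ATPase, and many dock on the tail of HSP90 through a tetratricopeptide (TPR) domain. HSF1, the heat shock factor that drives the response to unfolded proteins, is held inactive by chaperones in unstressed cells; once freed, it forms trimers that bind heat shock elements, which are alternating GAA and TTC units, in the promoters of chaperone genes. HSF2 is a related factor that acts in development and can join HSF1 in mixed trimers.

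Since several of these genes are known targets of HSF1, the 250 bases before each RefSeq start site were searched for heat shock elements of 3 units, GAANNTTCNNGAA or its reverse complement TTCNNGAANNTTC, which covers both strands. In the RefSeq table of GRCh38.p14 promoters, 8 of the 10 genes had at least 1 start site; FKBP4 and HSF1 had none. An element of 3 units stood before 1 of the 2 start sites of HSP90AA1, before 1 of the 3 of HSP90AB1 and before the single one of CHORDC1. None was found before the listed start sites of STIP1, CACYBP, PTGES3, AHSA1 or HSF2. Of all 27305 genes in the table, 152 (0.557%) had such an element. The shorter pattern of 2 units, GAANNTTC or TTCNNGAA, which lies within the longer one, was found in the same 3 genes and in 14% of all genes. The 3 windows that hold the element are shown because they belong to both HSP90 genes and to a co-chaperone gene. They run 5′ to 3′ on the strand of the gene, end 1 base before the start site, and have the elements of 3 units in capitals. They lie at chr14:102087045-102087294 on the minus strand for HSP90AA1, at chr6:44247693-44247942 on the plus strand for HSP90AB1 and at chr11:90223050-90223299 on the minus strand for CHORDC1.
HSP90AA1: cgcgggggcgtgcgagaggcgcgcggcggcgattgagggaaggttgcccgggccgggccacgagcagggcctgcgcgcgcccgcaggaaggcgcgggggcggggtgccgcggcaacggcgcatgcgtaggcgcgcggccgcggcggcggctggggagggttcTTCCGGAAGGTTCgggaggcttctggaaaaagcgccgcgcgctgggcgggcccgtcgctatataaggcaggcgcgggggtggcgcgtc
HSP90AB1: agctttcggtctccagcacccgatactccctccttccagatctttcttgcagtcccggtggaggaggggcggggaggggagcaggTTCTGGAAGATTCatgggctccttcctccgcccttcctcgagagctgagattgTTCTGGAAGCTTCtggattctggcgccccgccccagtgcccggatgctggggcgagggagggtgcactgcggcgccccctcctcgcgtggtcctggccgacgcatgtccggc
CHORDC1: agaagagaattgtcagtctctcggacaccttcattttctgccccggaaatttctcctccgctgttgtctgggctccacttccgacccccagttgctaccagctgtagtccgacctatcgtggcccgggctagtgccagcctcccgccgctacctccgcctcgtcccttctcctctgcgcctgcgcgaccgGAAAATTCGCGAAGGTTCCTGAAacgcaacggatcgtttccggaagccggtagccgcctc
In HSP90AA1 the element spans 88 to 76 bases before the start site. HSP90AB1 holds 2 separate elements, at 165 to 153 and at 112 to 100 bases before it. In CHORDC1 the units run on as 5 alternating ones over 23 bases, 60 to 38 bases before the start site. These matches are descriptions of the letters and do not show binding.

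The deposited values are log2 signals after RMA, 1 for each probe set and array; levels of different probe sets are not comparable, so each gene is compared only with itself. All 8 genes lay on all 4 arrays above the dim line of 5.70, under which 95% of 349 olfactory receptor genes had their mean, and above 7.56, under which 95% of 612 negative control probe sets had theirs. Time points were tested by limma across the 20893 probe sets together, p-values were adjusted by Benjamini-Hochberg, and an adjusted p below 0.05 counted as a call. The smallest log2 fold change among the 197 called probe sets was 1.63, or 3.09-fold, so smaller changes did not pass this test with these 4 arrays. As a check of the cell type, the 6 measured markers of K562 were above 7.56 on every array. The largest difference among them was in GATA1, the erythroid transcription factor, at 14.09 and 13.87 at 0 h and 12.96 and 12.92 at 24 h (-1.04 on the log2 scale, limma adjusted p = 0.18). CDKN2A and MTAP, genes of the region of chromosome 9 that K562 has lost, were below the dim line on every array. Of 7 measured markers of other cell types, 0 were called. But all 7 had negative fitted log2 fold changes, against 11511 of the 20893 probe sets. In 5 of the 7 both arrays at 24 h were below both at 0 h, against 24.9% of all probe sets. In this list 6 were below 7.56 on every array, among them PECAM1, an endothelial adhesion gene, with the largest difference (-1.32, limma adjusted p = 0.093). EPCAM, an epithelial adhesion gene, stood at 13.25 and 13.82 at 0 h and at 12.31 and 12.35 at 24 h (-1.21, limma adjusted p = 0.15). The part of these shifts in the results on the 8 genes was not tested.

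No gene of the group passed the test after 24 h of hemin, but both HSP90 genes and most co-chaperones had positive log2 fold changes. HSP90AA1, the inducible cytosolic HSP90, had the largest one, 1.15, or 2.21-fold. CHORDC1, STIP1 and PTGES3 followed at 0.78, 0.64 and 0.47, and HSP90AB1 and CACYBP stood at 0.30 and 0.28. FKBP4 and HSF1 were near 0, at 0.07 and -0.21. Of the 8 genes, 0 were called higher and 0 lower by limma, against 0.823% and 0.12% of all probe sets; at an unadjusted p under 0.05, 1 was higher, HSP90AA1, against 6.28% of all probe sets, and 0 were lower. Of the 8, 7 had a positive fitted log2 fold change, against 9382 of the 20893 probe sets. Both arrays at 24 h lay above both arrays at 0 h for 6 of the 8 genes, against 18.8% of all probe sets, and below them for 0, against 24.9%. Bright probe sets, the 541 with a mean of 14 or more, had the arrays at 24 h above in 24.0%, and 6 of the 8 genes are of that class. The median log2 fold change of the 8 genes was 0.39, against -0.06 over all probe sets and -0.03 over the 541 bright ones. The range of the 8 genes on the 4 arrays appears in the plot of array values.

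**Figure D1:**
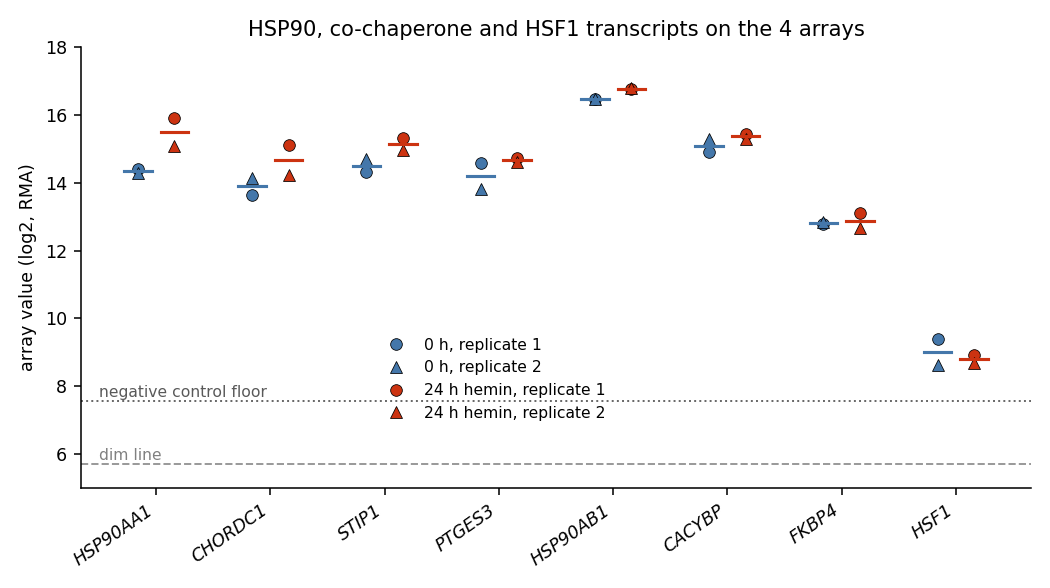
Array values (log2, RMA) of the 8 measured genes, ordered by their log2 fold change, with 1 point for each array and a bar at the mean of each time point; levels of different genes are not comparable. HSP90AA1 at 24 h stands above 0 h by 0.68 between the nearest arrays, more than the gap of its arrays at 0 h (0.096) but less than that at 24 h (0.83). The points of FKBP4 and of HSF1 overlap between the time points, and all points lie above the dim line (5.70) and the negative control floor (7.56).

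HSP90AA1 encodes the stress-inducible HSP90 of the cytosol, HSP90-alpha. At 0 h its log2 value was 14.40 in replicate 1 and 14.30 in replicate 2, and at 24 h it was 15.91 in replicate 1 and 15.08 in replicate 2. Both values at 24 h were above both at 0 h, the lower by 0.68, but the 2 arrays at 24 h stood 0.83 apart. The means were 14.35 ± 0.07 (SD, n = 2 arrays) and 15.49 ± 0.59 (SD, n = 2), a log2 fold change of 1.15 (SE, SE, 0.36, 95% interval 0.33 to 1.96, limma adjusted p = 0.21). In fold terms the interval runs from 1.26 to 3.88. With replicate 1 of 24 h left out the log2 fold change was 0.73 (limma adjusted p = 0.82), and with replicate 2 left out it was 1.56 (adjusted p = 0.088). When limma was instead run with its trend and robust options, which give bright probe sets the smaller spread that they have as a class, it called HSP90AA1 higher at the same size of difference (adjusted p = 0.035). The median spread within a time point was 0.17 (SD) over the 541 probe sets with a mean of 14 or more, against 0.31 over all probe sets, while that of HSP90AA1 was 0.42, larger than that of 94.5% of the 541.

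HSP90AB1 encodes HSP90-beta, the form that cells make at a steady level. Its log2 values were 16.48 in both arrays at 0 h, and 16.78 and 16.79 at 24 h. The time points do not overlap, and the arrays within a time point were 0.0016 and 0.012 apart. The log2 fold change was 0.30, or 1.23-fold (SE 0.31, 95% interval -0.38 to 0.99, limma adjusted p = 0.73). The standard error is far above the gaps between the arrays because limma draws each spread toward that of all probe sets. Only 0.555% of the 541 bright probe sets had a smaller spread within time points. The methods' own test, which takes the spread of each probe set alone, gave HSP90AB1 an unadjusted p of 3.9e-04, and an adjusted p of 0.28 over all probe sets. The log2 fold change of HSP90AA1 was 0.84 above that of HSP90AB1. By an exact permutation test of the 4 arrays, two-sided, this gave p = 0.33. That is the smallest p that 2 against 2 arrays allow, so the test cannot decide whether the changes differ. The difference was 0.42 without replicate 1 of 24 h and 1.26 without replicate 2.

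STIP1, known as HOP, joins HSP70 to HSP90 through its TPR domains and so hands clients over. Its log2 values were 14.31 and 14.70 at 0 h and 15.33 and 14.96 at 24 h, with no overlap and 0.26 between the nearest arrays of the time points. The difference was 0.64 on the log2 scale (SE 0.33, 95% interval -0.10 to 1.38, limma adjusted p = 0.46). FKBP4, or FKBP52, is a TPR co-chaperone with a peptidyl-prolyl isomerase domain that acts on steroid receptors. Its values were 12.78 and 12.85 at 0 h and 13.10 and 12.67 at 24 h, so the arrays at 24 h lay on either side of those at 0 h. Its log2 fold change was 0.07 (95% interval -0.65 to 0.79, limma adjusted p = 0.95), and -0.14 without replicate 1 of 24 h. The 2 TPR co-chaperones were thus measured with intervals that overlap widely.

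CHORDC1 encodes an HSP90 partner with zinc-binding CHORD domains and a CS domain, the fold it shares with p23. Its log2 values were 13.66 and 14.14 at 0 h and 15.12 and 14.23 at 24 h. The time points do not overlap, but replicate 2 of 24 h was only 0.09 above replicate 2 of 0 h. The log2 fold change was 0.78, or 1.71-fold (SE 0.39, 95% interval -0.09 to 1.64, limma adjusted p = 0.44). It was 0.33 without replicate 1 of 24 h and 1.22 without replicate 2. PTGES3 encodes p23, which holds the closed, ATP-bound HSP90. Its values were 14.58 and 13.82 at 0 h and 14.74 and 14.60 at 24 h, and the nearest arrays of the time points were 0.02 apart. On the log2 scale the difference was 0.47 (SE 0.35, 95% interval -0.32 to 1.26, limma adjusted p = 0.63), 0.09 without replicate 2 of 0 h and 0.85 without replicate 1 of 0 h. CACYBP encodes a CS-domain protein that binds calcyclin and the ubiquitin ligase SIAH1. Its values were 14.92 and 15.28 at 0 h and 15.45 and 15.30 at 24 h, with 0.02 between replicate 2 of the time points. Its log2 fold change was 0.28 (SE 0.32, 95% interval -0.44 to 0.99, limma adjusted p = 0.77). For PTGES3 and CACYBP the separation of the time points thus rests on gaps far smaller than those between replicates.

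HSF1, the factor itself, did not separate the time points. Its log2 values were 9.38 and 8.62 at 0 h and 8.90 and 8.68 at 24 h, and both arrays at 24 h lay between those at 0 h. Its log2 fold change was -0.21 (SE 0.36, 95% interval -1.01 to 0.59, limma adjusted p = 0.86). It was -0.59 without replicate 2 of 0 h and 0.18 without replicate 1 of 0 h. HSF1 is known to be controlled mainly on its protein, which these arrays do not report.

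**Figure D2:**
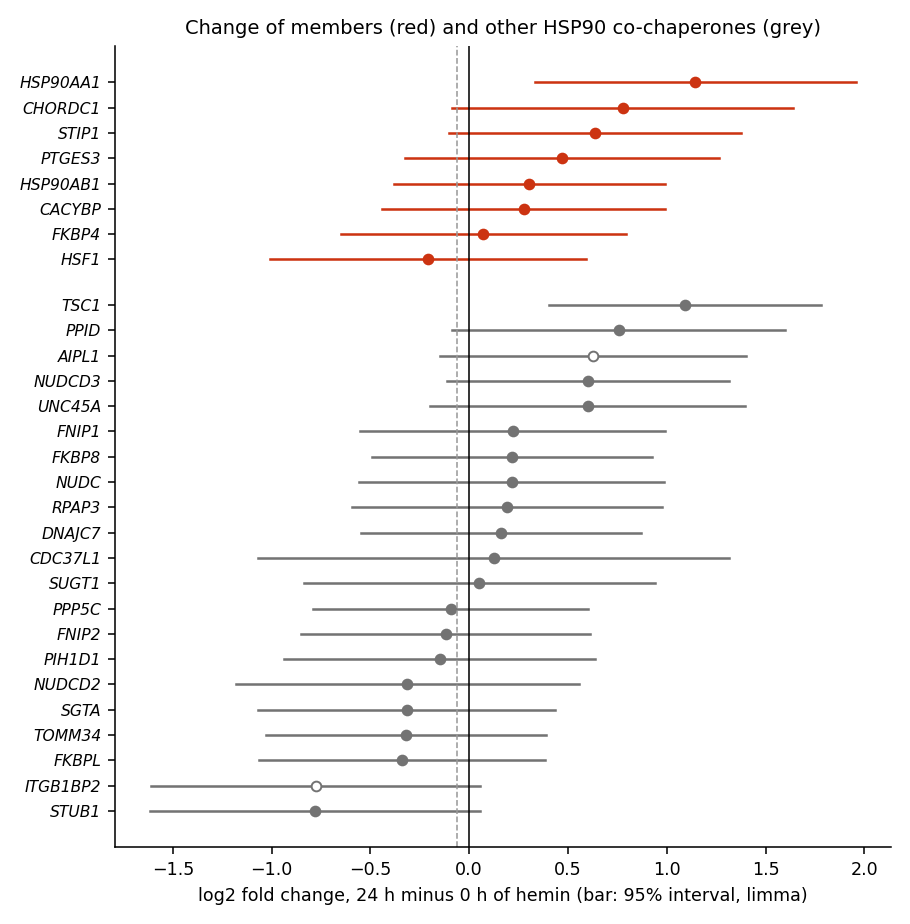
Log2 fold change (24 h minus 0 h) with its 95% interval from limma for the 8 genes (red) and for 21 other HSP90 co-chaperones (grey); open points mark genes with an array below the dim line, and the dashed line marks the median of all probe sets (-0.06). Among the 8 genes the interval of HSP90AA1 alone lies above 0 (0.33 to 1.96), and among the grey ones that of TSC1 does (0.40 to 1.78).

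The 2 arrays at 24 h differed in the same direction for nearly all of these genes. Replicate 1 was above replicate 2 in 7 of the 8, all but HSP90AB1, with a median gap of 0.30 on the log2 scale. Over all probe sets replicate 1 was above replicate 2 in 45.5%, with a median gap of -0.05, and over the 541 bright ones in 66.9%, with a median gap of 0.11. Of 18 other known HSF1 target genes, replicate 1 of 24 h was above replicate 2 in 18, with a median gap of 0.58. Without replicate 1 of 24 h, 6 of the 8 genes had a positive log2 fold change, with a median of 0.32 and a highest value of 0.73. Without replicate 2 of 24 h, 7 were positive, with a median of 0.45. What sets these arrays apart was not tested.

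**Figure D3:**
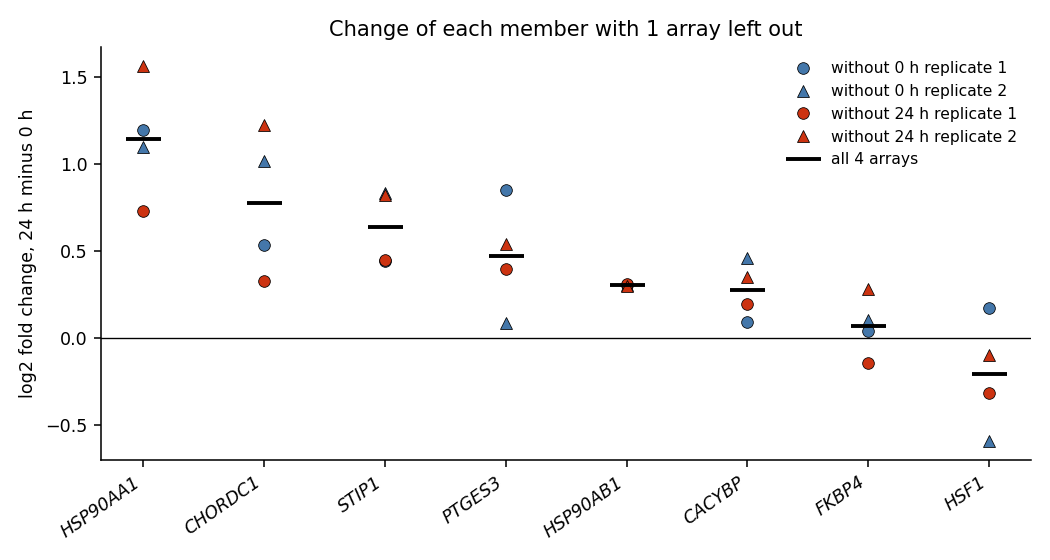
Log2 fold change of each of the 8 genes with all 4 arrays (black bar) and with each array left out in turn (points). HSP90AA1 stays between 0.73 and 1.56 and HSP90AB1 between 0.30 and 0.31, while FKBP4 and HSF1 take both signs.

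Other HSP90 co-chaperones, from lists chosen by their role, did not share one direction. Of 26 listed genes, 21 were measured, and 0 were called by limma in either direction. Of the 21, 12 had positive and 9 negative log2 fold changes, with a median of 0.12. At an unadjusted p under 0.05, 1 was higher, against 6.28% of all probe sets. That 1 was TSC1, which binds HSP90 and slows its ATPase besides its role in restraining mTORC1. Its values were 10.21 and 10.22 at 0 h and 11.25 and 11.36 at 24 h, which differ by 1.09 on average (SE 0.31, limma adjusted p = 0.15). Of 11 TPR co-chaperones measured, the largest difference was in STUB1, the ubiquitin ligase CHIP, at -0.78 (limma adjusted p = 0.42). Its arrays at 24 h were both at 9.5 when rounded, against 10.78 and 9.86 at 0 h, so the time points do not overlap. Of 6 CS-domain partners the largest difference, -0.78, was in ITGB1BP2, which was below the dim line on all 4 arrays. CDC37L1, the 1 gene measured of those that load kinases, had a log2 fold change of 0.12. TRAP1, the HSP90 of mitochondria, had one of -0.43 (limma adjusted p = 0.63). An element of 3 units was found in 0 of the 14 of these 21 co-chaperones that have a listed start site.

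Among 6 measured relatives and regulators of the heat shock factors, 0 were called by limma and 0 passed at an unadjusted p under 0.05. The largest difference, -0.52, was in HSF2BP, a partner of HSF2 that was below the dim line on all 4 arrays. HSBP1, a small protein that binds HSF1 trimers, had values of 11.29 and 11.85 at 0 h and of 12.23 and 11.53 at 24 h, which overlap.

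The other known HSF1 target genes, mainly chaperones and co-chaperones of other classes, are set beside the HSP90 genes because they share HSF1 as an activator. This list was chosen with earlier results of these data known, so its shares are descriptive and not an independent test. Of 18 measured, 4 rose and 0 fell by limma, against 0.823% and 0.12% of all probe sets. The log2 fold change was 5.37 for ZFAND2A, 4.24 for DNAJB4, 2.97 for HSPA1A, whose near-identical copy HSPA1B its probes may also read, and 2.83 for BAG3. All 18 had a positive fitted log2 fold change, with a median of 0.91. At an unadjusted p under 0.05, 13 were higher, against 6.28% of all probe sets. Both arrays at 24 h were above both at 0 h in 14 of the 18, against 18.8% of all probe sets. HSPB8 and CRYAB, small heat shock proteins, count among the 13 and the 14 although they were below the dim line on all 4 arrays. Without them 11 of 16 were higher at an unadjusted p under 0.05 and 12 did not overlap. HSPA1L, which still counts in both, was below the negative control floor of 7.56 on all 4 arrays. None of the 18 was called without replicate 1 of 0 h, and with the trend and robust variance model 6 were. DNAJB4 and ZFAND2A were called without each other array, while BAG3 and HSPA1A also lost their calls without replicate 2 of 0 h (adjusted p of 0.068 and 0.20 from limma). The log2 fold change of HSP90AA1, 1.15, lay close to that of HSPH1, an HSP70 exchange factor, at 1.18 (limma adjusted p = 0.17). An element of 3 units stood before a start site of 3 of the 17 target genes in the promoter table, HSPD1, DNAJB6 and SERPINH1, whose log2 fold changes were 0.04, 0.25 and 1.76, none of them called. The pattern of 2 units stood before a start site of 12 of the 17 (70.6%).

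**Figure D4:**
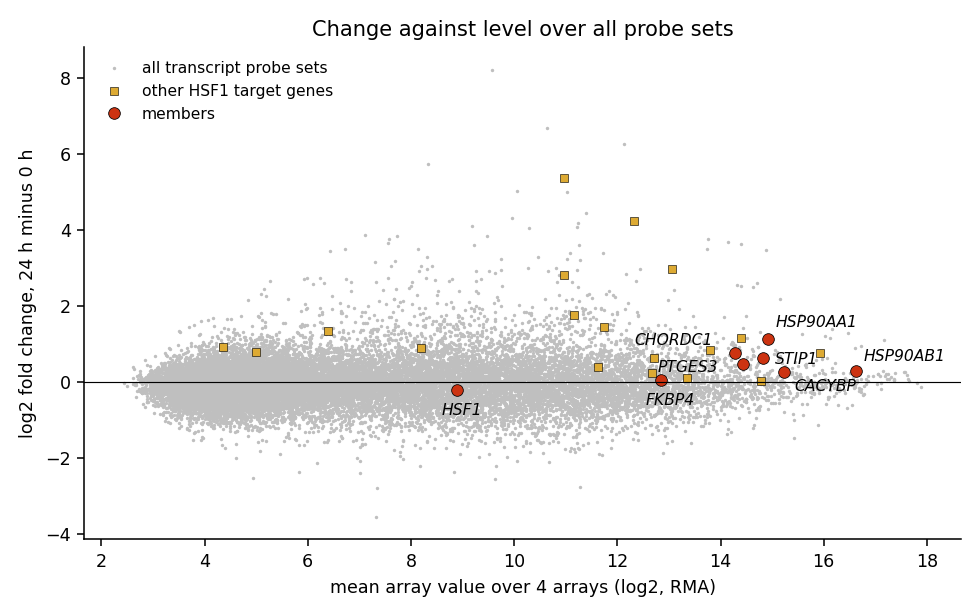
Log2 fold change (24 h minus 0 h) against the mean array value (log2, RMA) for all 20893 transcript probe sets (grey), the 18 other HSF1 target genes (gold squares) and the 8 genes of HSP90, its co-chaperones and HSF1 (red). The red points lie at the bright end with HSP90AA1 highest at 1.15, apart from HSF1 (-0.21), and below the 4 called target genes, which lie between 2.83 and 5.37.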

How the data were processed

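By the methods, total RNA of K562 cells was labelled with the GeneChip WT Plus kit and hybridized to Human Clariom S arrays. The authors processed the scans in Affymetrix Expression Console with RMA, and the deposited log2 values, 1 for each probe set and array, were used without further scaling. Software versions and the array's genome build were not given in the sources used here. RMA equalizes the distributions of the arrays, so a shift common to most genes would not be seen.

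Of 24351 rows, 2903 array controls and 555 unmapped transcripts were left out. Gene names came from the annotation that GEO holds for the platform, and 3188 of the 20893 tested are unnamed here. The probe set with the highest mean stood for a gene with more than 1; each of the 8 genes had 1.

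Arrays were grouped by the treatment in the labels. The difference of 24 h from 0 h was tested two-sided, without covariates, on all tested probe sets with lmFit and eBayes of limma 3.58.1 (R 4.3.3), and adjusted by Benjamini-Hochberg. An array has no read depth; the number of arrays, 2 for each time point, limits the precision. The script was tested on simulated data. As alternatives the values were normalized again, dim probe sets were dropped, genes were cut to 1 probe set, the variance model, weights and thresholds were changed, replicate number was blocked, arrays were left out in turn, and the methods' ANOVA was run. Promoters came from RefSeq (GRCh38.p14), as 250 bases before each start site; 2750 overlapping windows of opposite strands were exact reverse complements.

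The genes and the comparison lists were chosen with earlier results of these data known. All 10 genes are named, with every called gene of a list and the gene with the largest difference in it. EPCAM, HSBP1, HSPH1, HSPA1L, HSPB8, CRYAB, EIF2AK1, EIF2AK3, LIMK1, KIT, HSPD1, DNAJB6 and SERPINH1 are named after their values or sequences were seen.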

Additional observations from a re-analysis of the deposited data

How the results depend on the processing

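None of the 8 genes was called by limma in the main setting, after quantile normalization or median centring, with the filters on dim probe sets, with 1 probe set per gene, with array weights, at either other threshold of the adjusted p, with any 1 array left out, or after adjustment of the methods' ANOVA. With a trend and robust variance model 1 gene was called, HSP90AA1, and with the methods' ANOVA unadjusted 1, HSP90AB1. Over 104 combinations of gene and alternative, 100 kept direction and side of the threshold, 2 gained a call and 2 reversed: FKBP4 at -0.14 without replicate 1 of 24 h, with 0.28 as its highest value, and HSF1 at 0.18 without replicate 1 of 0 h, with -0.59 as its lowest. The mean of several probe sets gave no value, since each gene had 1.

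Over all probe sets the count of calls, 197, became 546 with the trend and robust model, 1930 and 0 with the methods' ANOVA before and after adjustment, 77 and 418 at thresholds of 0.01 and 0.10, and 456 with only probe sets above the negative control floor on every array, a filter added after the data were seen. It ran from 27 without replicate 1 of 0 h to 392 without replicate 2 of 24 h. With the replicate block it was 429. Arrays of the same number did not deviate together (r = -0.0032 across probe sets), so the numbers are not taken as pairs, and the block changed no call of the 8 genes. The causes were not tested. In the main setting no change under 1.63 on the log2 scale was called.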

Other observations

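Clients of HSP90, the proteins that it folds or holds, were read from 2 lists chosen by role. Of 16 measured kinase clients, 1 rose and 0 fell by limma, against 0.823% and 0.12% of all probe sets. The 1 was ULK1, the kinase that starts autophagy (limma adjusted p = 0.029). Its values were 7.18 and 6.77 at 0 h and 9.35 and 8.73 at 24 h, a log2 fold change of 2.07. At 0 h both arrays lay below the negative control floor of 7.56. Set against that floor, the mean at 24 h, 9.04, gives a lower bound of 1.48 on the log2 scale, or 2.79-fold. Leaving out replicate 1 or 2 of 0 h ended the call (adjusted p of 0.12 and 0.16), as did leaving out replicate 1 of 24 h (adjusted p = 0.067). The list had a median log2 fold change of 0.16, and at an unadjusted p under 0.05, 3 were higher and 1 was lower. Beside ULK1 the higher ones were EIF2AK3, the kinase PERK of the endoplasmic reticulum, at 7.60 and 8.54 at 0 h and 9.86 and 9.75 at 24 h (limma adjusted p = 0.070), and LIMK1, a kinase of cofilin, at 6.73 and 7.21 at 0 h, both below the floor, and 8.37 and 8.49 at 24 h (limma adjusted p = 0.080). The lower one was KIT, the receptor of stem cell factor, which was below the dim line on all 4 arrays. EIF2AK1, the heme-regulated kinase that is a well-known client of HSP90 in erythroid cells, had values of 13.07 and 12.37 at 0 h and of 13.42 and 12.99 at 24 h. Its time points overlap, and its means differ by 0.49 (limma adjusted p = 0.63). Of 6 measured receptor and transcription factor clients, 0 were called by limma and 1 was lower at an unadjusted p under 0.05, namely NR3C1, the glucocorticoid receptor, at 9.83 and 9.20 at 0 h and 8.81 and 8.59 at 24 h, which gives -0.81 on the log2 scale (limma adjusted p = 0.35).

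The genes whose 4 array values, each centred on its own mean, lay closest to those of HSP90AA1 were SPDYC, CTSB and DESI1, at Euclidean distances of 0.076, 0.12 and 0.13 on the log2 scale, out of 9080 genes above the dim line on every array. Their log2 fold changes of 1.21, 1.03 and 1.25 follow from this choice. SPDYC was at 6.63 and 6.58 at 0 h, below the negative control floor. The distance rests on 4 arrays that all genes share.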
